A study of Mus musculus with 15 samples.

Results

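The 40 genes described here act in the G2 phase and in mitosis: the kinases, cyclins and phosphatases of mitotic entry, the spindle checkpoint, the chromosomal passenger complex, centromere and kinetochore proteins, spindle kinesins and other microtubule proteins, cytokinesis proteins and proteins of the mitotic chromosome. They were chosen by name from a list made with earlier results of these data known, without using their measured values, and all 40 were found among the 23845 genes of the deposited tables. All 40 also passed the filter on low counts, which kept 14335 genes. E14, the cell line used, derives from mouse embryonic stem cells and was grown on gelatin, and RNA with poly(A) tails was sequenced in 15 libraries. Each culture received small interfering RNA (400 ng, by lipid transfection) and was harvested at 48 h. In the control group, EGFPKD, the small interfering RNA was directed against EGFP. In Ddx10KD, Ddx24KD, Ddx27KD and Ddx54KD it was directed against Ddx10, Ddx24, Ddx27 or Ddx54, which encode DEAD-box RNA helicases, and each of the 5 groups had 3 biological replicates. The knockdowns were transient and in 1 cell line, so each group stands for partial loss of a messenger RNA in 1 genetic background. The study's title concerns proteins that bind R-loops (RNA hybridised to DNA) and ribosomal RNA processing, and the comparison with EGFPKD asks what changes when a helicase is depleted.

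As background, Cdk1 bound to a B-type cyclin drives cells from G2 into mitosis. Inhibitory phosphates hold Cdk1 back until Cdc25 phosphatases remove them, and polo-like and Aurora kinases then build the spindle and prepare chromosomes. The checkpoint proteins Bub1, Bub1b, Ttk and Mad2l1 delay anaphase until kinetochores are attached, after which the anaphase-promoting complex with Cdc20 and Ube2c marks cyclin B and securin for destruction. Messenger RNAs of most of these genes are low in G1 and rise in G2, under complexes that bind the cell cycle homology region and CCAAT boxes in their promoters. Embryonic stem cells have a short G1 phase, and p53 with its target Cdkn1a can lower transcription of such genes. In RNA from a whole culture, fewer cells in G2 and mitosis and less RNA per such cell cannot be told apart.

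Libraries held 26836946 to 27708782 expected counts (reads assigned to genes by estimation). Each targeted messenger RNA was low in its own knockdown, at 18.5% ± 4.25 of the EGFPKD mean for Ddx10, 30.8% ± 4.89 of the EGFPKD mean for Ddx24, 22.7% ± 0.818 of the EGFPKD mean for Ddx27 and 27.95% ± 4.68 of the EGFPKD mean for Ddx54 (SD, n = 3 each). All 10 embryonic stem cell markers were expressed, with summed levels of 7816 to 8254 TPM (an abundance unit that is adjusted for transcript length). Of 10 fibroblast markers, 6 (Col1a2, Col3a1, Postn, Dcn, Lum and S100a4) stayed below 1 TPM in every library. The fibroblast list summed to 46.5 to 54.8 TPM in EGFPKD and to 31.7 to 39.98 TPM in the knockdowns. By edgeR with the block, 6, 5, 6 and 5 of the 10 stem cell markers were called lower and 2, 3, 3 and 2 higher in Ddx10KD, Ddx24KD, Ddx27KD and Ddx54KD, with median log2 changes of -0.15, -0.08, -0.14 and -0.12. Of all tested genes 21.3%, 19.9%, 22.6% and 18.8% were lower and 22.8%, 21.3%, 23.3% and 20.0% higher. Tcl1 was called lower in each knockdown (-0.60, -0.57, -0.59 and -0.47) and Sox2 higher (0.12, 0.24, 0.26 and 0.23), so the stem cell sum does not describe each gene. Endoderm markers summed to 206 to 222 TPM in EGFPKD, 184 to 192 in Ddx10KD, 159 to 201 in Ddx24KD, 169.99 to 209 in Ddx27KD and 216 to 232 in Ddx54KD, so that the Ddx10KD and Ddx24KD sums lay below those of EGFPKD. Single endoderm markers went both ways, so the sums do not describe each gene. Lama1 was called lower and Col4a1 higher in each knockdown. Sparc was called lower in Ddx10KD, Ddx24KD and Ddx27KD, and Gata6 higher in Ddx10KD (log2 1.42) and Ddx27KD (1.26). Trophoblast markers summed to 27.4 to 42.8 TPM in EGFPKD and to 23.95 to 41.1 in the knockdowns, which overlap. Within that list Krt8 was called lower in each knockdown. Krt18 was called lower in Ddx24KD, Krt7 higher in Ddx10KD, Ddx27KD and Ddx54KD, and Gata3 higher in Ddx54KD. The part of these marker shifts in the results below was not tested. Sox17, Foxa2, Cdx2 and Elf5 of these lists stayed below 1 TPM throughout.

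In EGFPKD cells the members spanned 18.7 to 617 TPM, on the scale adjusted for length. Ube2c, the conjugating enzyme that works with the anaphase-promoting complex, stood first at 617 ± 16.3 TPM (SD, n = 3). Top2a, the topoisomerase that untangles sister chromatids, followed at 439 ± 20.3 TPM, then Birc5 (survivin) at 364 ± 4.11, Cdc20 at 308 ± 5.89 and Ccnb1 at 274 ± 3.84 TPM. Each of these 5 lay above the next gene by more than the summed SDs. Plk1 (205 ± 7.44 TPM) and Ccna2 (201 ± 7.57) did not differ beyond their spread. From Ccnb2 (154 ± 4.39 TPM) down to Anln (121 ± 2.03), no gene was separated from its neighbour by more than the SDs, and Cdk1, at 109.8 ± 6.90 TPM, was inseparable from Aurkb and Prc1. The lowest were Aspm (29.98 ± 0.656 TPM), Kif4 (24.03 ± 1.35), Cdc25b (20.02 ± 0.716) and Cdc25c (18.7 ± 0.803), the last pair not separated. The members together took 0.814% to 0.832% of the expected counts in EGFPKD, 0.823% to 0.841% in Ddx10KD, 0.868% to 0.899% in Ddx24KD, 0.862% to 0.891% in Ddx27KD and 0.857% to 0.874% in Ddx54KD. The ranges of Ddx24KD, Ddx27KD and Ddx54KD lay above that of EGFPKD, and the range of Ddx10KD overlapped it.

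Promoter sequences of these genes were searched for 3 elements. Sequences of the 250 bases before the transcription start came from RefSeq on GRCm38.p6, the build also called mm10, and 33 of 40 members had an entry, some with several starts (35 windows). RefSeq starts can differ from the annotated gene: the Kif2c window lies inside its gene. The Kif4, Prc1 and Nusap1 windows have 0 bases free of annotated exons. All these windows are counted below. The cell cycle homology region, searched as TTTGAA, was present in 12 of 33 members (37.1% of their windows) and in 15.99% of all 32851 windows. The CCAAT box, searched as CCAAT, was present in 25 members (77.1% of windows, against 33.8% of all). An E2F core was searched as TTCCCGC, as TTGGCGC, and in the further spellings TTGCCGC and also TTCGCGC, and was present in 6 members (17.1% against 7.89%). Both strands were searched, and the CCAAT box on the reverse strand (ATTGG) shares letters with the second of the E2F cores. In Ddx24KD, CCAAT was found in 14 of 17 members that rose and had an entry and in 9 of 14 that were not called, and the homology region in 5 and 6. These matches are descriptions of letters and not of binding. Stretches free of annotated exons are printed for 4 members, with matches to any of the 3 elements in capitals: Cdk1, which was lower in each knockdown, Kif11 and Hmmr, which were higher, and Top2a, which was called in none.
Cdk1, chr10:69352939-69353162, reverse strand: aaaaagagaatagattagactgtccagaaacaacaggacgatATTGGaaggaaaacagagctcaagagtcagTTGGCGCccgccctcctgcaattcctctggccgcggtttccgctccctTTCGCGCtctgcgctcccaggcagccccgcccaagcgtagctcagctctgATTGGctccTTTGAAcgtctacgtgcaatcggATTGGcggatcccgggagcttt
Kif11, chr19:37376132-37376381, forward strand: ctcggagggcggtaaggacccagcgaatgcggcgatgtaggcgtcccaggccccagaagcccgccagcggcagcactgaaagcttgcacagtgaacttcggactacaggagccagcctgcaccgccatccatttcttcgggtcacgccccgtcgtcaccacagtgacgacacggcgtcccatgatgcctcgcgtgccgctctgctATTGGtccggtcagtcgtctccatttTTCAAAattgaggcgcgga
Hmmr, chr11:40733438-40733666, reverse strand: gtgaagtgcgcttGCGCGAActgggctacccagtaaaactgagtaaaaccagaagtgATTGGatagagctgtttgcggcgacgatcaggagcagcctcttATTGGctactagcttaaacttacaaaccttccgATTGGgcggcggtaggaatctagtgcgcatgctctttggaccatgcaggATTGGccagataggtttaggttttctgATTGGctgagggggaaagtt
Top2a, chr11:99024190-99024439, reverse strand: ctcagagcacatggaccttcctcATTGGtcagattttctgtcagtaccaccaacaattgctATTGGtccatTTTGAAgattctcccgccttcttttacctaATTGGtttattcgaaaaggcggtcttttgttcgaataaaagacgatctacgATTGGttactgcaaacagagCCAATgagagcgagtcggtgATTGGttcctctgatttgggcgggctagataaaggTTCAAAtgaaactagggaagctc
The Cdk1 stretch ends 26 bases before its start, where annotated exon sequence begins, and holds 3 CCAAT boxes, 2 E2F cores and a homology region, with another homology region between it and the start. Kif11 carries a single CCAAT box and a homology region close to its start. Hmmr carries 5 CCAAT boxes, all on the reverse strand, with an E2F core and no TTTGAA, and Top2a, with 6 CCAAT boxes and 2 homology regions, has the most matches of the 4.

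Against EGFPKD, changes among the members were small and went both ways. The 160 fitted log2 changes (40 genes in 4 knockdowns) lay between -0.31 and 0.36, and none reached 2-fold. Genes are called here at an adjusted p under 0.05 in edgeR's quasi-likelihood test of all 15 libraries, with the replicate number as a block, with Benjamini-Hochberg adjustment across the 14335 genes. In Ddx24KD 20 members rose and 3 fell, in Ddx27KD 16 rose and 4 fell, and in Ddx54KD 13 rose and 4 fell. Ddx10KD had the other balance, with 6 higher and 13 lower. Over all tested genes 22.8% rose and 21.3% fell in Ddx10KD, 21.3% and 19.9% in Ddx24KD, 23.3% and 22.6% in Ddx27KD, and 20.0% and 18.8% in Ddx54KD. As shares of the 40 members, 15% rose and 32.5% fell in Ddx10KD, 50% rose and 7.5% fell in Ddx24KD, 40% rose and 10% fell in Ddx27KD and 32.5% rose and 10% fell in Ddx54KD. Counting both directions, 19, 23, 20 and 17 members were called, which is 47.5%, 57.5%, 50% and 42.5% of the 40, where 44.0%, 41.2%, 45.8% and 38.9% of all genes were called. The share in Ddx24KD stands furthest above that of all genes. In the test of any difference among the 5 groups 31 of 40 members were called, beside 49.5% of all genes, and without the block 13 of 40, beside 29% of all genes. Groups that do not overlap, as named for single genes below, were common. Of all 14335 genes, 3409 lay wholly above EGFPKD and 3214 wholly below it in Ddx10KD, and 3018 and 2813 in Ddx24KD. Of the 40 members, 6 lay above and 10 below in Ddx10KD, and 19 and 1 in Ddx24KD. Such counts are not given here for Ddx27KD and Ddx54KD, so groups without overlap there stand without a share of all genes.

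The median log2 change of the members was -0.004 in Ddx10KD, 0.10 in Ddx24KD, 0.08 in Ddx27KD and 0.06 in Ddx54KD, and that of all tested genes was 0.01, 0.002, 0.01 and 0.01. Members are expressed well above the filter, where more genes are called. Among the 7386 other genes with mean levels between those of the lowest and the highest member (17.3 to 1144 CPM, counts relative to the TMM-scaled library total), 24.5% rose and 28.9% fell in Ddx10KD, 23.3% rose and 27.5% fell in Ddx24KD, 24.3% rose and 32.02% fell in Ddx27KD and 21.1% rose and 27.6% fell in Ddx54KD. Called in either direction were 53.4%, 50.8%, 56.4% and 48.7% of these genes in the same order. Without the block fewer members were called, 3 higher and 5 lower in Ddx10KD, 16 higher and 0 lower in Ddx24KD, 10 higher and 3 lower in Ddx27KD and 6 higher and 3 lower in Ddx54KD. In that fit 16.5% of all genes were higher and 14.5% lower in Ddx10KD, 15.03% and 13.1% in Ddx24KD, 17.3% and 16.1% in Ddx27KD, and 13.1% and 11.2% in Ddx54KD. The members called there in either direction are 20%, 40%, 32.5% and 22.5% of the 40, beside 31.0%, 28.1%, 33.4% and 24.3% of all genes. Leaving out EGFPKD replicate 2 brought the members that rose in Ddx54KD to 8, and leaving out Ddx10KD replicate 2 or 3 brought those that fell in Ddx10KD to 8. All 4 comparisons share the EGFPKD libraries, so they are not independent.

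**Figure D1:**
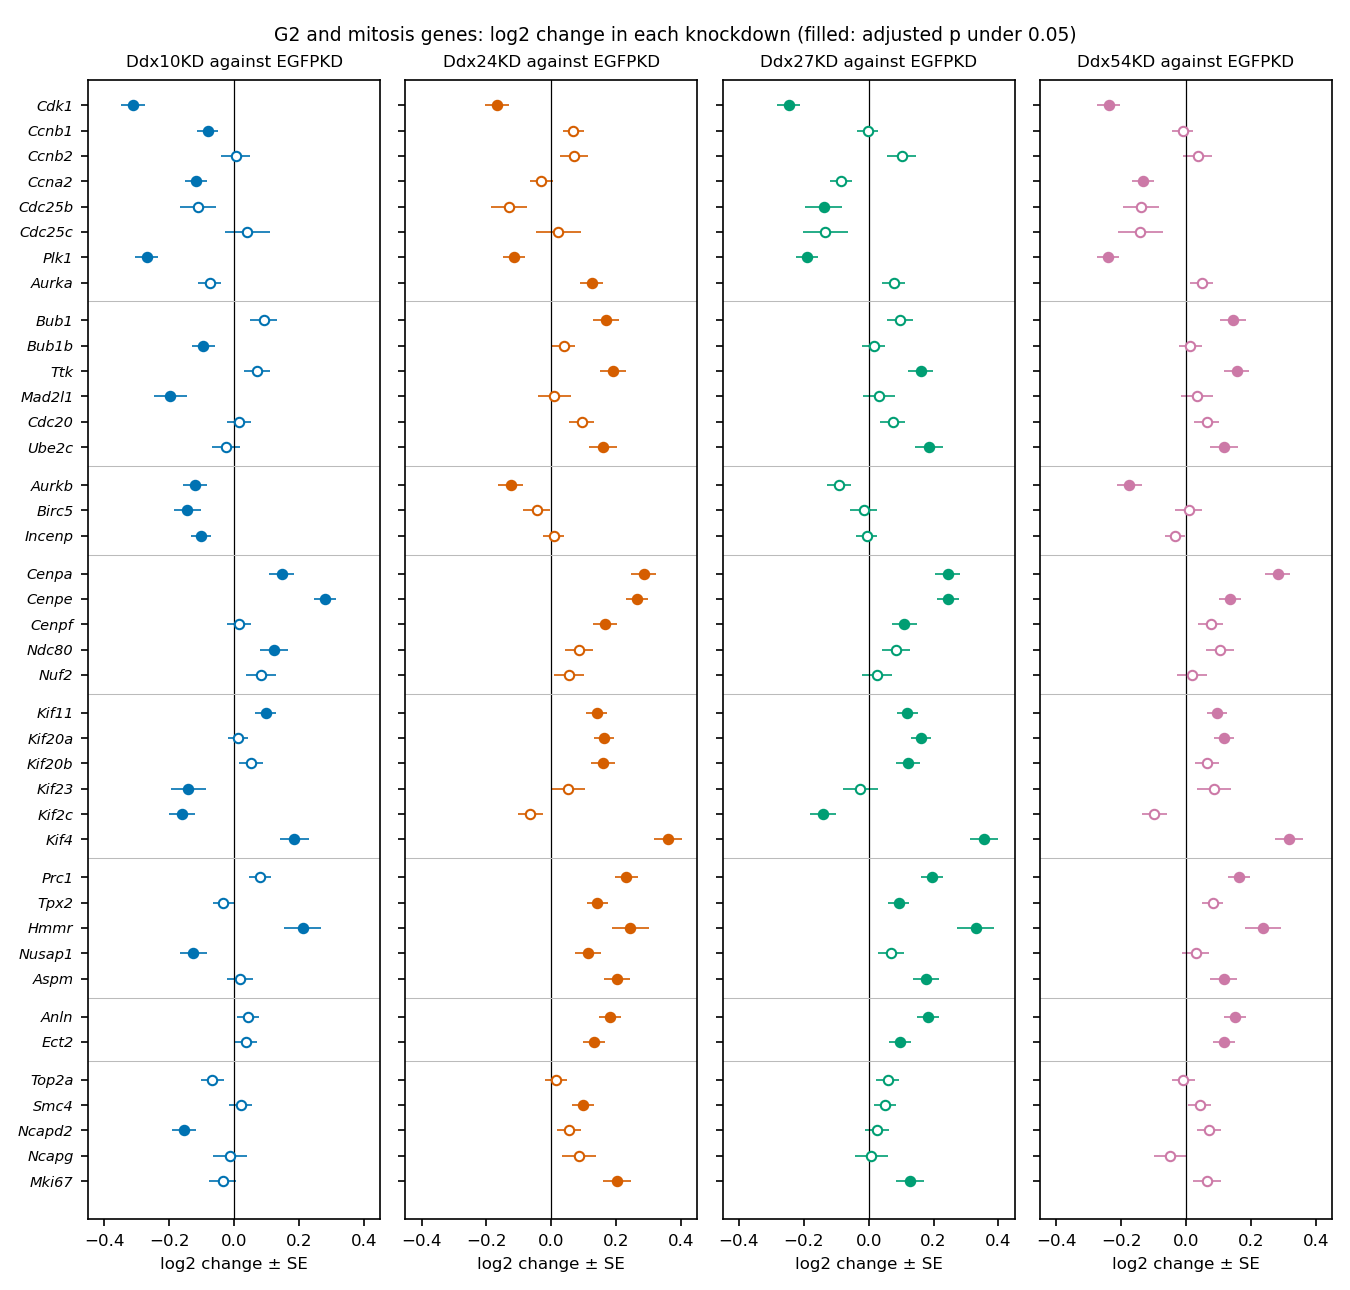
Fitted log2 change (horizontal axis, with SE) of each of the 40 members (rows, grouped by role) in each knockdown against EGFPKD; filled points have an adjusted p under 0.05. Cdk1 and Plk1 lie left of 0 in all 4 panels, Kif4, Cenpa, Cenpe and Hmmr lie right of 0, and no point passes 0.36.

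Counts by role group, here and below, stand beside the shares of all tested genes given above, with 8 genes or fewer in a group. Among the 8 genes of mitotic entry, 4 fell in Ddx10KD, 1 rose and 2 fell in Ddx24KD, 3 fell in Ddx27KD and 3 fell in Ddx54KD. Cdk1, the kinase of mitotic entry, fell in each knockdown. Cdk1 was at 162, 159.8 and 143 CPM in EGFPKD replicates 1, 2 and 3, and at 131, 129 and 115 in Ddx10KD. It was at 137, 147 and 129 CPM in Ddx24KD, 133, 135 and 123 in Ddx27KD and 134, 141 and 119 in Ddx54KD. Every Ddx10KD, Ddx27KD and Ddx54KD value lay below the lowest EGFPKD value, whereas Ddx24KD replicate 2 lay inside the EGFPKD range. The log2 changes were -0.31 ± 0.04 in Ddx10KD, -0.17 ± 0.04 in Ddx24KD, -0.25 ± 0.04 in Ddx27KD and -0.24 ± 0.04 in Ddx54KD (SE), with edgeR adjusted p of 1.47e-06, 0.001, 1.77e-05 and 4.11e-05. Plk1, the polo-like kinase of centrosome maturation and mitotic entry, fell as well. Plk1 was at 221, 232 and 211 CPM in EGFPKD replicates 1, 2 and 3, and at 187, 184 and 179.6 in Ddx10KD. It was at 201, 217 and 195 CPM in Ddx24KD, 198, 196 and 187 in Ddx27KD and 191, 192 and 179 in Ddx54KD. Only Ddx24KD replicate 2 overlapped the control values. Its log2 changes were -0.27 ± 0.03 in Ddx10KD, -0.12 ± 0.03 in Ddx24KD, -0.19 ± 0.03 in Ddx27KD and -0.24 ± 0.03 in Ddx54KD (SE), with edgeR adjusted p of 4.92e-06, 0.0114, 0.000174 and 2.54e-05.

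Cyclins moved less than the kinase. Ccna2, the cyclin of S phase and G2, fell in Ddx10KD (-0.12 ± 0.03, log2, SE, edgeR adjusted p 0.00955) and in Ddx54KD (-0.13 ± 0.03, 0.00468), and was at -0.03 and -0.08 in the other two. Ccnb1, the main B-type cyclin, fell in Ddx10KD alone by the threshold (-0.08 ± 0.03, 0.0461), with 0.07, -0.003 and -0.01 in Ddx24KD, Ddx27KD and Ddx54KD. Its EGFPKD libraries stood at 311, 317 and 304 CPM and those of Ddx10KD at 289, 299.9 and 292 CPM, so the groups did not overlap, but by a narrow gap. Ccnb2, the other B-type cyclin measured, was called in none, at 0.005 to 0.10. Aurka, the Aurora kinase of centrosomes and spindle poles, rose in Ddx24KD (0.12 ± 0.04, 0.00821) and was at -0.07 in Ddx10KD. Of the phosphatases that activate Cdk1, Cdc25b was at -0.11, -0.13, -0.14 and -0.14 in the 4 knockdowns in the order above and passed in Ddx27KD (0.0498). Cdc25c, the lowest member, was not called, at 0.04, 0.02, -0.13 and -0.14. In the fit without the block, edgeR adjusted p passed 0.05 for Aurka (0.0573), Cdk1 (0.0995) and Plk1 (0.11) in Ddx24KD, Ccna2 (0.163) and Ccnb1 (0.161) in Ddx10KD, Ccna2 (0.127) in Ddx54KD and Cdc25b (0.156) in Ddx27KD. Leaving out a single library ended the call for Aurka in Ddx24KD without EGFPKD replicate 3 and Ddx24KD replicate 3 (0.0535 to 0.0683), for Ccna2 in Ddx10KD without Ddx10KD replicate 2 (0.0568), for Ccnb1 in Ddx10KD without any of the 6 libraries (0.0742 to 0.143), for Cdc25b in Ddx27KD without EGFPKD replicates 1 and 2 and Ddx27KD replicates 1, 2 and 3 (0.0586 to 0.291), for Plk1 in Ddx24KD without Ddx24KD replicate 1 (0.0688).

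Of the 6 genes of the spindle checkpoint and anaphase ubiquitylation, 2 fell in Ddx10KD, 3 rose in Ddx24KD, 2 rose in Ddx27KD and 3 rose in Ddx54KD. Ttk, the kinase that starts checkpoint signalling at kinetochores, rose in Ddx24KD, Ddx27KD and Ddx54KD, by 0.19 ± 0.04, 0.16 ± 0.04 and 0.16 ± 0.04 (log2, SE; edgeR adjusted p 0.000789, 0.00261 and 0.00406). Ttk was at 109, 105 and 102 CPM in EGFPKD replicates 1, 2 and 3, and at 109.7, 117 and 106 in Ddx10KD. It was at 118, 126 and 117 CPM in Ddx24KD, 118, 117 and 118 in Ddx27KD and 116, 119 and 117 in Ddx54KD. The 9 values of those 3 knockdowns all lay above the EGFPKD values, and those of Ddx10KD overlapped them. Ube2c, the conjugating enzyme named above, rose by 0.16 ± 0.04, 0.19 ± 0.04 and 0.12 ± 0.04 in the same 3 (adjusted p 0.00548, 0.00148 and 0.0374) and was at -0.02 in Ddx10KD. Bub1, a checkpoint kinase of the outer kinetochore, rose in Ddx24KD (0.17 ± 0.04, 0.00279) and Ddx54KD (0.14 ± 0.04, 0.00865), with 0.09 in Ddx10KD and 0.10 in Ddx27KD. Mad2l1, which binds and holds Cdc20 while kinetochores are unattached, went the other way in Ddx10KD (-0.20 ± 0.05, 0.0038). It stood at 122, 111 and 112 CPM in EGFPKD and at 104, 104 and 93.3 in Ddx10KD, without overlap, and at 0.01 to 0.03 on the log2 scale in the others. Bub1b, a checkpoint inhibitor of the anaphase-promoting complex, fell in Ddx10KD (-0.10 ± 0.04, 0.0354) and was not called elsewhere. Cdc20, the activator of that complex, was called in none, at 0.01, 0.09, 0.07 and 0.06. If the block was left out, edgeR adjusted p was above 0.05 for Bub1b (0.123) in Ddx10KD, Ube2c (0.13) in Ddx24KD, Ube2c (0.0705) in Ddx27KD and Ube2c (0.28) in Ddx54KD. The call was lost on leaving out 1 library for Bub1 in Ddx54KD without EGFPKD replicate 2 and Ddx54KD replicate 3 (0.0539 to 0.0573), for Bub1b in Ddx10KD without EGFPKD replicates 2 and 3 and Ddx10KD replicates 1 and 2 (0.096 to 0.164), for Ube2c in Ddx54KD without EGFPKD replicates 1 and 2 and Ddx54KD replicates 1 and 2 (0.124 to 0.178).

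The chromosomal passenger complex corrects faulty attachments at centromeres and acts at the spindle midzone, and of its 3 measured subunits 3 fell in Ddx10KD, 1 fell in Ddx24KD and 1 fell in Ddx54KD. Aurkb, the kinase of the complex, fell in Ddx10KD, Ddx24KD and Ddx54KD. Aurkb was at 104, 107 and 109 CPM in EGFPKD replicates 1, 2 and 3, and at 103, 93.1 and 99.7 in Ddx10KD. It was at 98.3, 95.7 and 100.3 CPM in Ddx24KD, 99.8, 97.01 and 105 in Ddx27KD and 95.3, 92.4 and 96.8 in Ddx54KD. All Ddx10KD, Ddx24KD and Ddx54KD values lay below the lowest EGFPKD value, and replicate 3 of Ddx27KD overlapped the control range. The log2 changes were -0.12 ± 0.04 in Ddx10KD, -0.13 ± 0.04 in Ddx24KD, -0.09 ± 0.04 in Ddx27KD and -0.17 ± 0.04 in Ddx54KD (SE; edgeR adjusted p 0.0147, 0.0122, 0.0541 and 0.00127). Birc5, which docks the complex on centromeric chromatin, fell in Ddx10KD (-0.14 ± 0.04, 0.00948), where it stood at 155, 163 and 153 CPM against 177, 172 and 171 in EGFPKD, and was at -0.05, -0.02 and 0.01 in the others. Incenp, the scaffold that binds both, fell in Ddx10KD (-0.10 ± 0.03, 0.0139) and was at 0.01, -0.01 and -0.03 elsewhere. Without the block, edgeR adjusted p rose above 0.05 for Aurkb (0.0709) and Incenp (0.0693) in Ddx10KD and Aurkb (0.0641) in Ddx24KD. With 1 library left out, the call was lost for Aurkb in Ddx10KD without EGFPKD replicate 2 and Ddx10KD replicates 2 and 3 (0.065 to 0.0961), for Aurkb in Ddx24KD without EGFPKD replicate 2 (0.0695), for Birc5 in Ddx10KD without Ddx10KD replicates 1 and 3 (0.0554 to 0.064), for Incenp in Ddx10KD without EGFPKD replicate 1 and Ddx10KD replicate 3 (0.0561 to 0.0586).

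Of the 5 centromere and kinetochore genes, 3 rose in Ddx10KD, 3 rose in Ddx24KD, 3 rose in Ddx27KD and 2 rose in Ddx54KD. Cenpa, the histone H3 variant that marks centromeres, rose in each knockdown. Cenpa was at 90.9, 91.5 and 86.1 CPM in EGFPKD replicates 1, 2 and 3, and at 101, 103 and 93.3 in Ddx10KD. It was at 107, 110.0 and 109 CPM in Ddx24KD, 108, 109.7 and 99.6 in Ddx27KD and 107, 112 and 107 in Ddx54KD. No knockdown library overlapped the EGFPKD range, and replicate 3 of Ddx10KD came closest. The log2 changes were 0.15 ± 0.04 in Ddx10KD, 0.29 ± 0.04 in Ddx24KD, 0.24 ± 0.04 in Ddx27KD and 0.28 ± 0.04 in Ddx54KD (SE; edgeR adjusted p 0.00476, 1.03e-05, 4.61e-05 and 1.41e-05). Cenpe, a kinesin that carries chromosomes to the spindle equator, rose in each knockdown too. Cenpe was at 153, 146 and 151 CPM in EGFPKD replicates 1, 2 and 3, and at 177, 178 and 192 in Ddx10KD. It was at 178, 172 and 192 CPM in Ddx24KD, 176, 173 and 185 in Ddx27KD and 163, 159 and 173 in Ddx54KD. The groups did not overlap, and Ddx54KD lay nearest to EGFPKD. Its changes were 0.28 ± 0.03 in Ddx10KD, 0.26 ± 0.03 in Ddx24KD, 0.24 ± 0.03 in Ddx27KD and 0.14 ± 0.03 in Ddx54KD (adjusted p 2.97e-06, 6.71e-06, 1.17e-05 and 0.00413).

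Cenpf, a large coiled-coil protein of the outer kinetochore and nuclear envelope, rose in Ddx24KD (0.16 ± 0.04, log2, SE, edgeR adjusted p 0.00157) and Ddx27KD (0.11 ± 0.04, 0.0213). It was at 0.01 in Ddx10KD and 0.08 in Ddx54KD. With length trends removed, the Ddx24KD value was 0.06 (edgeR adjusted p 0.194) and the Ddx27KD value turned to -0.01 (0.819), so neither call was kept. Ndc80 and Nuf2 form a dimer that holds microtubules at the kinetochore. Ndc80 passed in Ddx10KD (0.12 ± 0.04, 0.0278), although its libraries there (62.6, 73.6 and 70.7 CPM) overlapped those of EGFPKD (58.7, 65.4 and 65.9 CPM), and Nuf2 was called in none, at 0.02 to 0.08. In the fit without the block, edgeR adjusted p passed 0.05 for Cenpe (0.0706) in Ddx54KD, Cenpf (0.108) in Ddx27KD and Ndc80 (0.188) in Ddx10KD. Leaving out a single library ended the call for Cenpf in Ddx27KD without EGFPKD replicate 3 and Ddx27KD replicates 2 and 3 (0.0504 to 0.166), for Ndc80 in Ddx10KD without EGFPKD replicates 1 and 2 and Ddx10KD replicates 2 and 3 (0.0916 to 0.144).

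Among 6 further spindle kinesins, 2 rose and 2 fell in Ddx10KD, 4 rose in Ddx24KD, 4 rose and 1 fell in Ddx27KD and 3 rose in Ddx54KD. Kif4, a kinesin of chromosome arms and the spindle midzone, had the largest increases of all members in Ddx24KD, Ddx27KD and Ddx54KD. Kif4 was at 57.97, 58.9 and 52.4 CPM in EGFPKD replicates 1, 2 and 3, and at 64.2, 63.8 and 64.5 in Ddx10KD. It was at 72.4, 74.05 and 70.6 CPM in Ddx24KD, 71.2, 73.4 and 72.03 in Ddx27KD and 67.9, 72.6 and 70.6 in Ddx54KD. All 12 knockdown values exceeded the highest EGFPKD value, and Ddx10KD lay between EGFPKD and the other knockdowns. The log2 changes were 0.19 ± 0.04 in Ddx10KD, 0.36 ± 0.04 in Ddx24KD, 0.36 ± 0.04 in Ddx27KD and 0.32 ± 0.04 in Ddx54KD (SE; edgeR adjusted p 0.00194, 2.94e-06, 2.27e-06 and 1.42e-05). Kif11, the motor that pushes spindle poles apart, rose by 0.10 ± 0.03 in Ddx10KD, 0.14 ± 0.03 in Ddx24KD, 0.12 ± 0.03 in Ddx27KD and 0.10 ± 0.03 in Ddx54KD (adjusted p 0.0201, 0.00177, 0.00543 and 0.0246). Its EGFPKD libraries stood at 255, 257 and 248 CPM, and the knockdown libraries between 266 and 288 CPM, all above them. Kif20a, which carries the passenger complex to the midzone, rose in Ddx24KD (0.16 ± 0.03, 0.0004), Ddx27KD (0.16 ± 0.03, 0.000312) and Ddx54KD (0.12 ± 0.03, 0.00617), and was at 0.01 in Ddx10KD. Its relative Kif20b, a motor of late cytokinesis, rose in Ddx24KD (0.16 ± 0.04, 0.00233) and Ddx27KD (0.12 ± 0.04, 0.0129).

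The other two kinesins moved down where they were called. Kif2c, which depolymerises microtubules at centromeres instead of walking on them, fell in Ddx10KD (-0.16 ± 0.04, log2, SE, edgeR adjusted p 0.00245) and Ddx27KD (-0.14 ± 0.04, 0.00605). Its EGFPKD libraries held 136, 130.3 and 139 CPM, those of Ddx10KD 123, 120.0 and 119 and those of Ddx27KD 121, 126 and 121, without overlap. It was at -0.06 in Ddx24KD and -0.10 in Ddx54KD. Kif23, the motor of the centralspindlin complex in cytokinesis, passed in Ddx10KD (-0.14 ± 0.05, 0.0394), with 149.5, 146 and 134 CPM there and 164, 165 and 145 in EGFPKD, which overlapped. If the block was left out, edgeR adjusted p was above 0.05 for Kif11 (0.0775) and Kif23 (0.184) in Ddx10KD, Kif11 (0.0936) and Kif20a (0.114) in Ddx54KD and Kif20b (0.0508) in Ddx27KD. The call was lost on leaving out 1 library for Kif11 in Ddx10KD without EGFPKD replicates 2 and 3 and Ddx10KD replicates 1, 2 and 3 (0.0572 to 0.105), for Kif11 in Ddx54KD without EGFPKD replicates 2 and 3 and Ddx54KD replicates 1 and 3 (0.0767 to 0.121), for Kif20b in Ddx27KD without EGFPKD replicates 2 and 3 and Ddx27KD replicate 2 (0.0622 to 0.098), for Kif23 in Ddx10KD without EGFPKD replicates 1, 2 and 3 and Ddx10KD replicates 2 and 3 (0.0522 to 0.16).

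**Figure D2:**
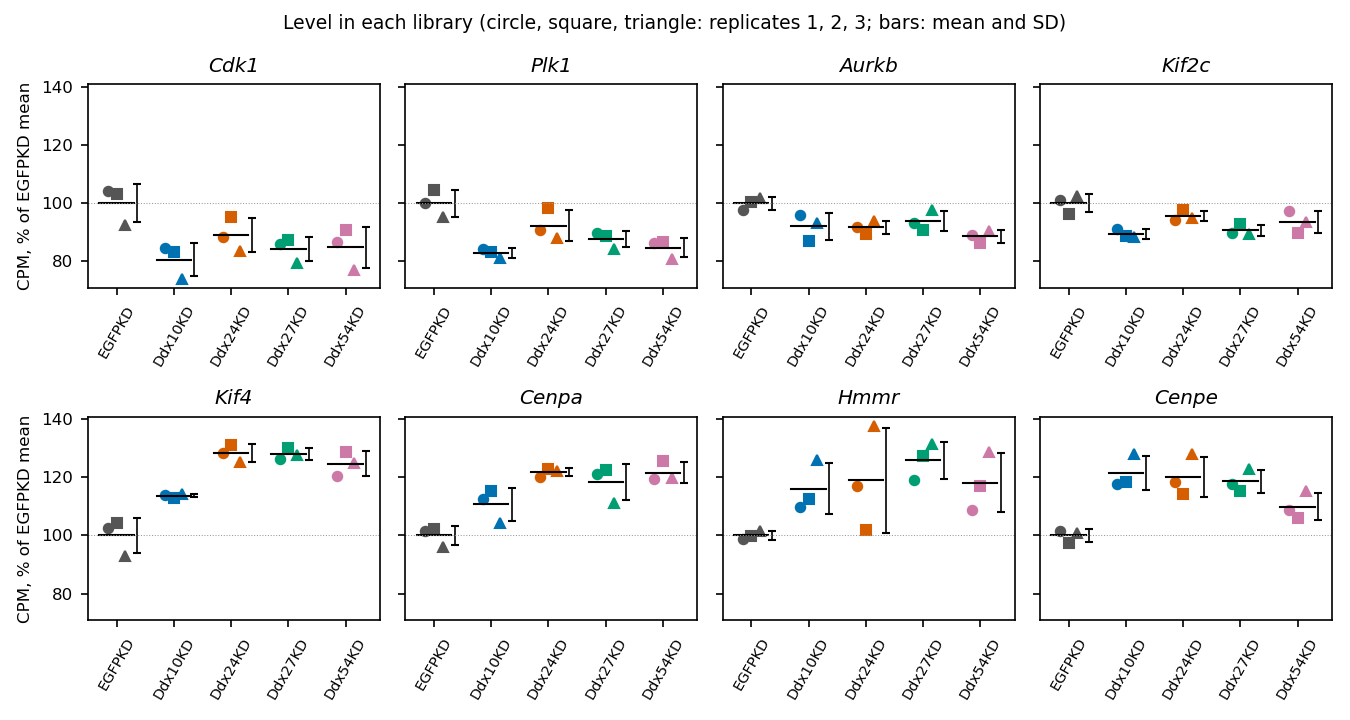
Level of 8 members in each of the 15 libraries (vertical axis, TMM-scaled CPM as percent of the EGFPKD mean; horizontal axis, group; symbols, replicate numbers; lines and bars, mean and SD). Kif4 and Cenpa lie above 100% in all 12 knockdown libraries and Cdk1 and Plk1 below it, with means of 80.6% for Cdk1 in Ddx10KD and 128% for Kif4 in Ddx24KD.

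Of the 5 spindle microtubule proteins, 1 rose and 1 fell in Ddx10KD, 5 rose in Ddx24KD, 4 rose in Ddx27KD and 3 rose in Ddx54KD. Hmmr, a coiled-coil protein of spindle poles, rose in each knockdown. Hmmr was at 237, 239.6 and 244 CPM in EGFPKD replicates 1, 2 and 3, and at 263, 270.4 and 303 in Ddx10KD. It was at 281, 245 and 331 CPM in Ddx24KD, 286, 306 and 316 in Ddx27KD and 261, 282 and 309 in Ddx54KD. Ddx24KD replicate 2 lay just above the highest control value, at 245 against 244 CPM, and all knockdown values were above it. The log2 changes were 0.21 ± 0.06 in Ddx10KD, 0.24 ± 0.06 in Ddx24KD, 0.33 ± 0.06 in Ddx27KD and 0.24 ± 0.06 in Ddx54KD (SE; edgeR adjusted p 0.00517, 0.00199, 9.99e-05 and 0.00268). Prc1, which crosslinks antiparallel microtubules in the midzone, rose by 0.23 ± 0.03 in Ddx24KD, 0.20 ± 0.03 in Ddx27KD and 0.16 ± 0.03 in Ddx54KD (adjusted p 3.01e-05, 0.000136 and 0.001), and was at 0.08 in Ddx10KD.

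Aspm, which holds microtubule minus ends at spindle poles, rose in Ddx24KD (0.20 ± 0.04, log2, SE, edgeR adjusted p 0.000607), Ddx27KD (0.18 ± 0.04, 0.00148) and Ddx54KD (0.12 ± 0.04, 0.0301), and was at 0.02 in Ddx10KD. Tpx2, the activator of Aurora A on the spindle, rose in Ddx24KD (0.14 ± 0.03, 0.00171) and Ddx27KD (0.09 ± 0.03, 0.0247). Nusap1, which links microtubules to chromatin, fell in Ddx10KD (-0.13 ± 0.04, 0.0179) and rose in Ddx24KD (0.11 ± 0.04, 0.0323). Nusap1 was at 117, 118 and 110.3 CPM in EGFPKD replicates 1, 2 and 3, and at 99.2, 114 and 103 in Ddx10KD. It was at 122, 132 and 119 CPM in Ddx24KD, 120.0, 128 and 114 in Ddx27KD and 112, 123 and 118 in Ddx54KD. Ddx10KD replicate 2 overlapped the EGFPKD range, and all 3 Ddx24KD values lay above it. Without the block, edgeR adjusted p rose above 0.05 for Aspm (0.0911) and Hmmr (0.0568) in Ddx54KD, Hmmr (0.0759) and Nusap1 (0.151) in Ddx10KD, Nusap1 (0.194) in Ddx24KD and Tpx2 (0.141) in Ddx27KD. With 1 library left out, the call was lost for Aspm in Ddx54KD without EGFPKD replicates 2 and 3 and Ddx54KD replicates 1 and 3 (0.0689 to 0.166), for Hmmr in Ddx10KD without EGFPKD replicate 3 (0.0559), for Nusap1 in Ddx10KD without EGFPKD replicate 1 and Ddx10KD replicate 1 (0.117 to 0.127), for Nusap1 in Ddx24KD without EGFPKD replicates 2 and 3 and Ddx24KD replicates 1 and 2 (0.0583 to 0.185), for Tpx2 in Ddx27KD without EGFPKD replicates 2 and 3 and Ddx27KD replicates 1, 2 and 3 (0.0501 to 0.126).

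Both genes of the cytokinetic ring, Anln and Ect2, rose in Ddx24KD, Ddx27KD and Ddx54KD. Anln encodes anillin, the scaffold of the contractile ring. Anln was at 328, 327 and 327 CPM in EGFPKD replicates 1, 2 and 3, and at 327, 347 and 338 in Ddx10KD. It was at 363, 373 and 378 CPM in Ddx24KD, 355, 389.7 and 371 in Ddx27KD and 351, 364 and 375 in Ddx54KD. The 3 EGFPKD values lay within a narrow range, and all values of those 3 knockdowns exceeded them. The log2 changes were 0.04 ± 0.03 in Ddx10KD, 0.18 ± 0.03 in Ddx24KD, 0.18 ± 0.03 in Ddx27KD and 0.15 ± 0.03 in Ddx54KD (SE; edgeR adjusted p 0.323, 0.000254, 0.000179 and 0.00153). Ect2, the exchange factor that activates RhoA at the cleavage plane, changed by 0.04 ± 0.03 in Ddx10KD, 0.13 ± 0.03 in Ddx24KD, 0.10 ± 0.03 in Ddx27KD and 0.12 ± 0.03 in Ddx54KD (adjusted p 0.412, 0.00528, 0.03 and 0.0114). In the fit without the block, edgeR adjusted p passed 0.05 for Ect2 (0.121) in Ddx27KD and Ect2 (0.0715) in Ddx54KD. Leaving out a single library ended the call for Ect2 in Ddx27KD without EGFPKD replicates 2 and 3 and Ddx27KD replicates 1 and 2 (0.057 to 0.162), for Ect2 in Ddx54KD without EGFPKD replicates 2 and 3 and Ddx54KD replicate 2 (0.0535 to 0.0778).

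Of 5 proteins of the mitotic chromosome, 1 fell in Ddx10KD, 2 rose in Ddx24KD and 1 rose in Ddx27KD. Mki67, which coats mitotic chromosomes and is the antigen of Ki-67 staining, rose in Ddx24KD (0.20 ± 0.04, log2, SE, edgeR adjusted p 0.000801) and Ddx27KD (0.13 ± 0.04, 0.0195). Mki67 was at 469, 464 and 442 CPM in EGFPKD replicates 1, 2 and 3, and at 441, 448 and 453 in Ddx10KD. It was at 499, 578 and 508 CPM in Ddx24KD, 478, 513 and 512 in Ddx27KD and 464, 483 and 492 in Ddx54KD. Ddx24KD replicate 2 was the highest library, and Ddx10KD overlapped EGFPKD. Ncapd2, a subunit of condensin I, fell in Ddx10KD (-0.16 ± 0.04, 0.00232), at 274, 281 and 271 CPM against 305, 327 and 289 in EGFPKD, and was at 0.05, 0.03 and 0.07 in the others. Smc4, an ATPase subunit of condensin, rose in Ddx24KD (0.10 ± 0.04, 0.0336). Top2a, at -0.07, 0.01, 0.06 and -0.01, and Ncapg, a condensin I subunit at -0.01, 0.09, 0.01 and -0.05, were called in none. If the block was left out, edgeR adjusted p was above 0.05 for Mki67 (0.08) in Ddx27KD, Ncapd2 (0.0887) in Ddx10KD and Smc4 (0.118) in Ddx24KD. The call was lost on leaving out 1 library for Mki67 in Ddx27KD without EGFPKD replicates 2 and 3 and Ddx27KD replicates 2 and 3 (0.0505 to 0.121), for Smc4 in Ddx24KD without EGFPKD replicates 2 and 3 and Ddx24KD replicates 1 and 2 (0.0701 to 0.162).

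The knockdowns were also compared with each other, in 6 pairs, to ask where the members' levels differed between them. Where a member was called against Ddx10KD, its level was lower in Ddx10KD for all members except Cenpe. Of the 40 members, 19 were lower in Ddx10KD than in Ddx24KD, where 3.09% of all tested genes were lower, 2.32% higher and 5.41% called in either direction. Against Ddx27KD 12 were lower (of all genes 2.96% lower, 2.39% higher, 5.34% either way), and against Ddx54KD 11 were lower and 1 higher (5.30%, 5.28% and 10.6% of all genes). The median log2 difference of the members was -0.11, -0.10 and -0.07, and 34, 35 and 31 of 40 had a difference below 0. Among other genes in the members' range of levels, 4.43%, 3.94% and 6.85% were lower. The 3 comparisons share the Ddx10KD libraries.

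Nusap1 had the largest difference from Ddx24KD, at -0.24 ± 0.04 (log2, SE, edgeR adjusted p 0.00212), then Mki67 at -0.24 ± 0.04 (0.003) and Ncapd2 at -0.21 ± 0.04 (0.00307). Aurka was lower in Ddx10KD than in Ddx24KD, Ddx27KD and Ddx54KD, by values of -0.20, -0.15 and -0.12 (adjusted p 0.00297, 0.0186 and 0.0309). Its Ddx10KD libraries stood at 143, 153 and 145 CPM, and the other knockdown libraries between 155 and 169.7 CPM, all higher. Ube2c differed by -0.18, -0.21 and -0.14 in the same order, and Mad2l1, the checkpoint protein, by -0.21, -0.23 and -0.23 (adjusted p 0.0234, 0.0143 and 0.00658). Against Ddx54KD the smallest p was that of Ncapd2 (-0.23 ± 0.04, 0.000796). The member that was higher there was Cenpe, at 0.14 ± 0.03 (0.0112). Kif4, the midzone kinesin, was lower in Ddx10KD than in Ddx24KD (-0.17 ± 0.04, 0.0251) and Ddx27KD (-0.17 ± 0.04, 0.0281), although above EGFPKD.

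These differences between knockdowns rest on the pairing of replicate numbers: without the block 0, 0 and 0 members were called by edgeR (22, 15 and 12 at an unadjusted p under 0.05), with 59, 32 and 205 of all genes. Against Ddx24KD, the count was 10 without Ddx10KD replicate 1, 5 without Ddx10KD replicate 2 and 9 without Ddx10KD replicate 3. With any 1 of the 6 libraries of the pair left out, it was 1 to 7 against Ddx27KD and 1 to 5 against Ddx54KD. Of the 19, 12 and 12 members called against Ddx24KD, Ddx27KD and Ddx54KD, 5, 0 and 1 kept their call with each library left out. Aurka against Ddx27KD and Ddx54KD, and Kif4 against Ddx24KD and Ddx27KD, were among those that lost it. These fits keep the block with 2 libraries in the group that lost one. Between Ddx24KD and Ddx27KD, Ddx24KD and Ddx54KD, and Ddx27KD and Ddx54KD, 0, 0 and 0 members were called by edgeR, 0, 1 and 0 by DESeq2 and 0, 0 and 0 by limma-voom. Without Ddx24KD replicate 2, 1 member was called by edgeR between Ddx24KD and Ddx54KD. At an unadjusted p under 0.05 there were 4, 11 and 3, and of all genes 0.0558%, 1.74% and 2.62% were called (0.0209%, 0.942% and 1.45% higher in the first group named, 0.0349%, 0.802% and 1.16% lower). The members' log2 differences there lay between -0.11 and 0.16, with SEs of 0.03 to 0.07, so differences of that size could go undetected.

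**Figure D3:**
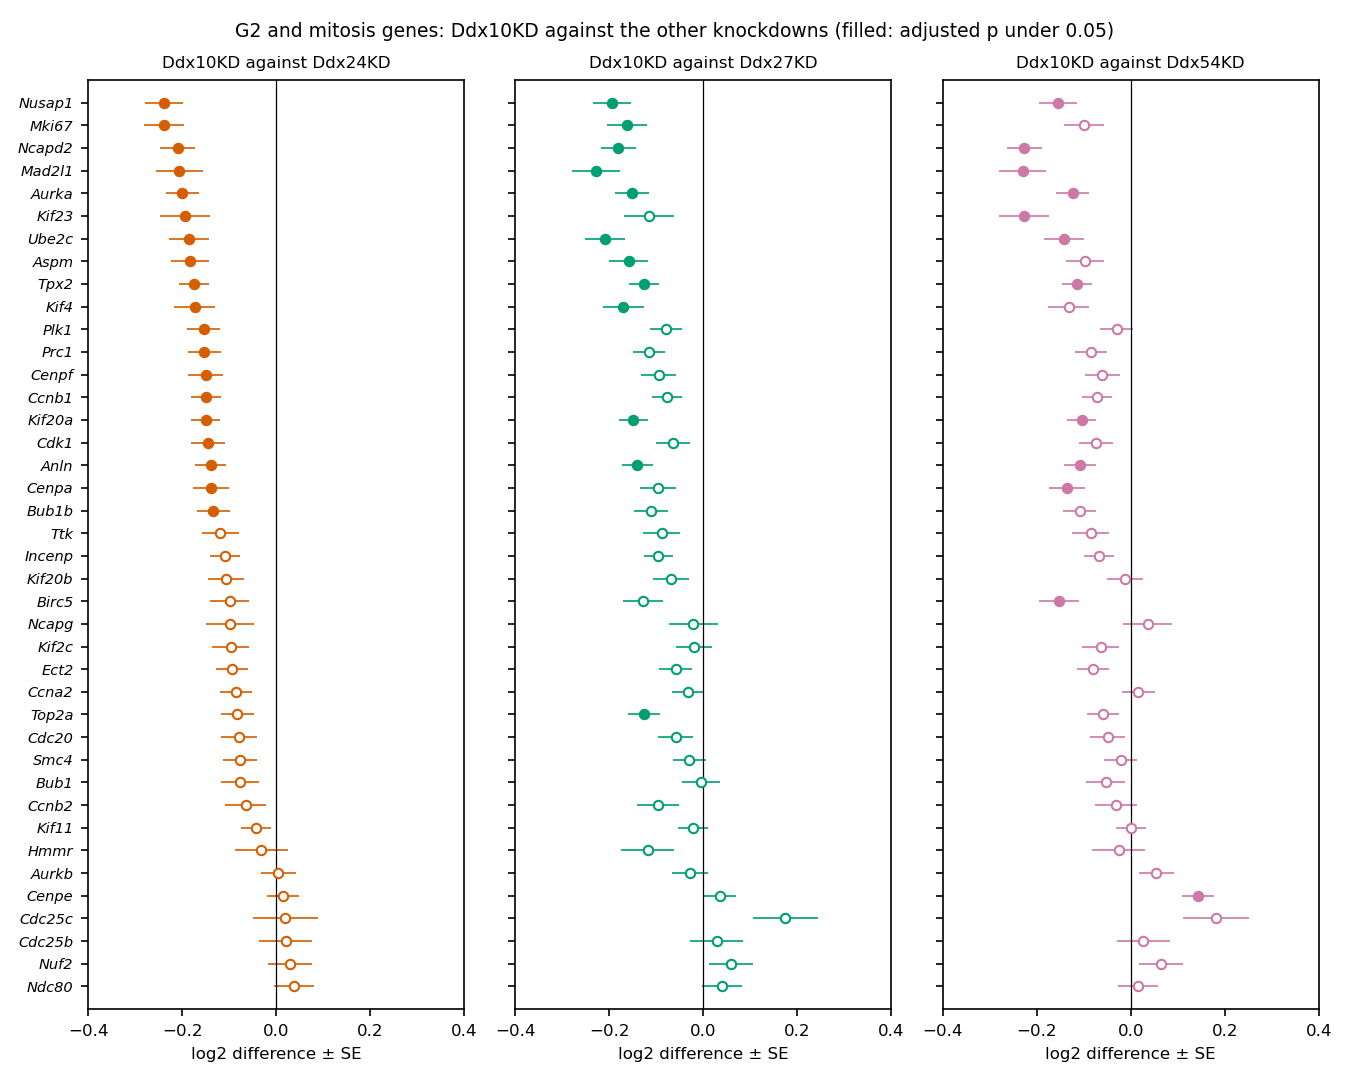
Fitted log2 difference (horizontal axis, with SE) of each member between Ddx10KD and each other knockdown, ordered by the difference from Ddx24KD; filled points have an adjusted p under 0.05. Points lie left of 0 for 34, 35 and 31 of 40 members, and Cenpe is the filled point on the right.

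Lists of further mitotic genes were examined beside the members. Of 18 other spindle and cytokinesis genes, 6 rose and 4 fell in Ddx10KD, 11 rose and 2 fell in Ddx24KD, 8 rose and 2 fell in Ddx27KD and 8 rose and 2 fell in Ddx54KD. Kif18b, a kinesin that shortens astral microtubules, rose by 0.92, 0.87, 1.06 and 0.86 (log2, in the order Ddx10KD, Ddx24KD, Ddx27KD, Ddx54KD), more than any member. Ckap2, a spindle microtubule protein, rose by 0.70, 0.68, 0.88 and 0.74, and Kif15, a motor that supports Kif11, by 0.37, 0.50, 0.55 and 0.47. Racgap1, the partner of Kif23 in centralspindlin, fell by 0.27, 0.17, 0.22 and 0.23 on the log2 scale. The 30 other kinetochore genes moved both ways (8 rose and 8 fell in Ddx10KD, 7 rose and 4 fell in Ddx24KD, 10 rose and 5 fell in Ddx27KD and 7 rose and 5 fell in Ddx54KD), as did the 19 genes of the anaphase-promoting complex (3 rose and 6 fell in Ddx10KD, 3 rose and 3 fell in Ddx24KD, 5 rose and 5 fell in Ddx27KD and 5 rose and 4 fell in Ddx54KD), the 15 of cohesin and separase (4 rose and 2 fell in Ddx10KD, 5 rose and 1 fell in Ddx24KD, 5 rose and 2 fell in Ddx27KD and 5 rose and 2 fell in Ddx54KD), the 17 other entry regulators (3 rose and 6 fell in Ddx10KD, 5 rose and 4 fell in Ddx24KD, 4 rose and 5 fell in Ddx27KD and 5 rose and 5 fell in Ddx54KD) and the 5 other condensin genes (1 rose and 1 fell in Ddx10KD, 2 rose and 1 fell in Ddx24KD, 2 rose and 1 fell in Ddx27KD and 2 rose and 1 fell in Ddx54KD). Their median log2 changes lay between -0.07 and 0.09. Over all tested genes 22.8% rose and 21.3% fell in Ddx10KD, 21.3% and 19.9% in Ddx24KD, 23.3% and 22.6% in Ddx27KD, and 20.0% and 18.8% in Ddx54KD. Several lists lay near these shares: of the other kinetochore genes, 26.7% rose and 26.7% fell in Ddx10KD.

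Among 22 transcription regulators of G2 and mitosis genes, 5 rose and 6 fell in Ddx10KD, 5 rose and 5 fell in Ddx24KD, 6 rose and 8 fell in Ddx27KD and 4 rose and 8 fell in Ddx54KD. In Ddx10KD that is 22.7% and 27.3% of this list, beside 22.8% and 21.3% of all tested genes. Rbl2, the p130 pocket protein of the DREAM repressor complex, rose by 1.26, 1.07, 1.36 and 1.00 (log2, same order). Nfyb, a subunit of the CCAAT-binding factor NF-Y, rose by 0.43, 0.33, 0.39 and 0.24, and the E2F factors E2f8 and E2f3 fell, by 0.42, 0.40, 0.48 and 0.59 and 0.22, 0.39, 0.32 and 0.42. Myb was also among the 3 largest called rises in Ddx24KD, Ddx27KD and Ddx54KD, at 0.29, 0.33 and 0.31. Foxm1 was among those of Ddx10KD, at 0.23. E2f2 was among the 3 largest called falls in Ddx10KD, Ddx24KD and Ddx27KD, at -0.33, -0.26 and -0.25, and E2f4 in Ddx54KD, at -0.27. Cdkn1a, the cyclin-dependent kinase inhibitor under p53, rose from 31.3 ± 1.73 CPM in EGFPKD to 84.2 ± 6.23, 72.03 ± 22.99, 92.6 ± 3.75 and 75.2 ± 4.18 CPM (SD, n = 3). Of 12 p53 targets in a list of growth arrest genes that also holds Mdm2, 11 rose in Ddx10KD, 11 rose in Ddx24KD, 10 rose in Ddx27KD and 10 rose in Ddx54KD. S-phase genes moved mostly down: of 38, 1 rose and 27 fell in Ddx10KD, 28 fell in Ddx24KD, 30 fell in Ddx27KD and 29 fell in Ddx54KD, with median log2 changes of -0.24, -0.18, -0.21 and -0.20. Ccne2 and Ccne1, the cyclins of S-phase entry, fell by 0.58, 0.53, 0.65 and 0.51 and 0.58, 0.51, 0.61 and 0.48. The members' medians of -0.004, 0.10, 0.08 and 0.06 stand beside these, and the difference between the lists was not tested. Kif18b, Ckap2, Kif15, Racgap1, Rbl2, Nfyb, E2f8, E2f3, Cdkn1a, Ccne2 and Ccne1 were called in all 4 knockdowns. No call of these 11 genes was lost in the alternatives, where adjusted p reached at most 0.0415.

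**Figure D4:**
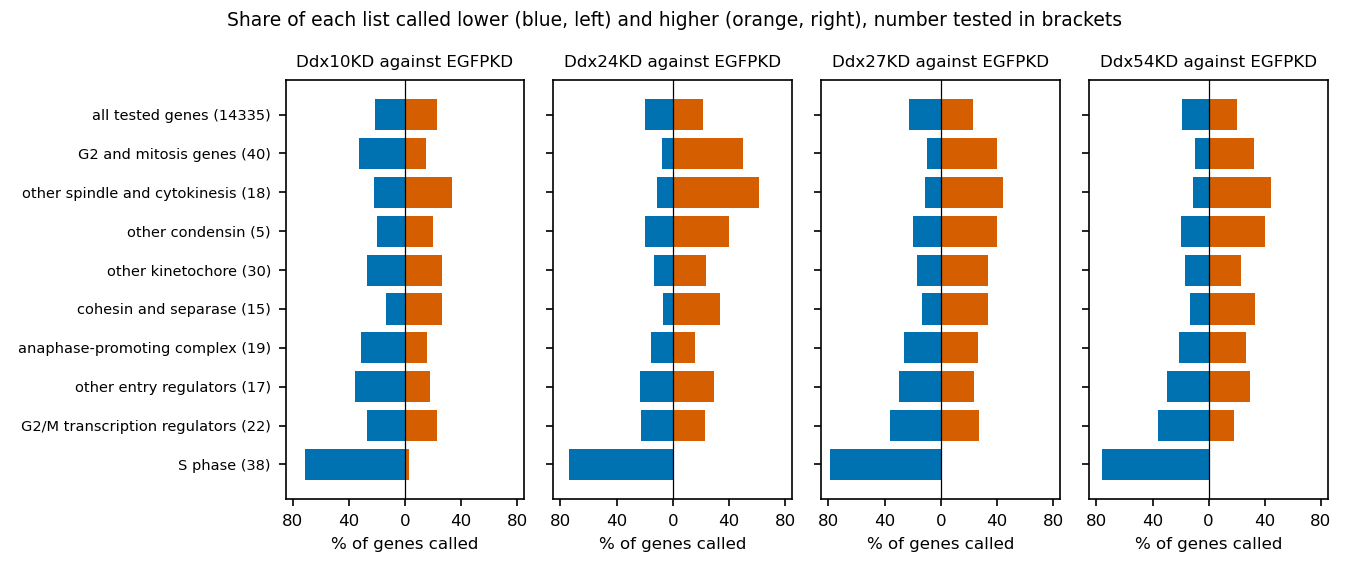
Share of the genes of each list (rows, number tested in brackets) called lower (left) and higher (right) in each knockdown against EGFPKD, in percent. The S-phase list is called lower in 71.1% to 78.9% of its genes, and the G2 and mitosis genes lean to the right in Ddx24KD, Ddx27KD and Ddx54KD.

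Transcript length and base composition moved with the changes. Across the 40 members, which share the same libraries, the log2 change and log2 transcript length had Pearson's r of 0.278, 0.373, 0.287 and 0.225 in the 4 knockdowns, and the change and GC content r of -0.447, -0.419, -0.358 and -0.353. Long members include Aspm (9866 bases), Mki67 (10075) and Cenpf (11122). With each library's trend over length removed, in an alternative chosen after the data were seen, edgeR calls were lost for Ccnb1 (-0.08, adjusted p 0.0534), Birc5 (-0.09, adjusted p 0.0983) and Kif11 (0.05, adjusted p 0.214) in Ddx10KD, Cenpf (0.06, adjusted p 0.194), Smc4 (0.07, adjusted p 0.0926) and Mki67 (0.10, adjusted p 0.0513) in Ddx24KD, Cenpf (-0.01, adjusted p 0.819), Kif11 (0.07, adjusted p 0.0688), Kif20b (0.05, adjusted p 0.227), Tpx2 (0.06, adjusted p 0.143), Aspm (0.06, adjusted p 0.171), Ect2 (0.07, adjusted p 0.117) and Mki67 (0.01, adjusted p 0.831) in Ddx27KD and Kif11 (0.06, adjusted p 0.107) and Aspm (0.06, adjusted p 0.19) in Ddx54KD. Cdk1 and Plk1 remained lower and Cenpa, Cenpe, Kif4 and Hmmr higher in every knockdown with that trend removed, with log2 changes in Ddx24KD of -0.17 for Cdk1, -0.10 for Plk1, 0.34 for Cenpa, 0.18 for Cenpe, 0.32 for Kif4 and 0.22 for Hmmr. With GC trends removed instead, counts of members called against EGFPKD stayed within 1.5 times. Values of single genes are not listed here for that alternative, so which calls it kept is not shown gene by gene. In every alternative, the GC one included, 7, 14, 11 and 8 members kept their call in the 4 knockdowns.

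In the authors' deposited table for each knockdown, all 40 members are listed with a posterior probability of differential expression and a fold change. At a probability of at least 0.95, 3 members were higher and 6 lower in the authors' deposited table for Ddx10KD, 6 were higher in that for Ddx24KD, 9 and 3 in that for Ddx27KD, and 6 and 1 in that for Ddx54KD. Over all listed genes, 17.1%, 12.4%, 18.3% and 13.1% reached that probability in the authors' deposited tables. Kif4 had log2 folds of 0.18, 0.29, 0.35 and 0.31 in the authors' deposited tables, and Cdk1 -0.32, -0.15, -0.25 and -0.24. Kif4 reached a probability of 0.95 in each, but Cdk1 did not for Ddx24KD (0.147) or Ddx54KD (0.635). Nor did Plk1 for Ddx24KD (0.094), Cenpa for Ddx10KD (0.796) or Cenpe for Ddx54KD (0.948). Hmmr stood at 0.844, 0.0525 and 0.866 for Ddx10KD, Ddx24KD and Ddx54KD. Kif11 missed 0.95 for Ddx24KD (0.854) and Ddx54KD (3.94e-07). Ratios of mean CPM from the libraries lay within 0.1 (log2) of the deposited folds for 95.6% of genes at 10 CPM or more in the authors' deposited table for Ddx24KD, and for 99.9% in each of the other 3.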

How the data were processed

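Per the submitters' processing notes, the authors made gene values with RSEM on mm10. RSEM's version, the aligner and the annotation: not given in the sources used here. The file headers name expected counts (estimated reads, not scaled for depth), TPM, FPKM (not used) and transcript lengths, as deposited. The authors' deposited EBSeq tables hold posterior probabilities as scores and fold changes as ratios, with settings not given.

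Expected counts were rounded, filtered with filterByExpr (14335 of 23845 genes), scaled by TMM and fitted with edgeR's quasi-likelihood test in 1 model of 15 libraries with the replicate number as a block. Benjamini-Hochberg adjustment ran over all genes kept. Levels are TMM-scaled CPM, and log2 values in summaries add 0.5 CPM. SEs follow from the fitted change and its F statistic. The software was DESeq2 1.42.0, limma 3.58.1 and edgeR 4.0.16 in R 4.3.3. The fit was also run on simulated counts that held no effect of the replicate number, so that run does not test the block.

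Labels give replicate numbers but no shared day. Deviations from group means correlated above 0.1 in all 30 pairs of same-numbered libraries (0.164 to 0.447; -0.313 to 0.0569 for different numbers), so the numbers pair the libraries.

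The members and lists, and the use of the block, were chosen with earlier results of these data known. Values are given for 6 set members (Cdk1, Ccnb1, Plk1, Aurka, Mki67, Top2a), for up to 4 per role with the smallest p over 5 groups, for up to 5 called each way per knockdown and for up to 3 called per pair. Outside the members these are the targets, Cdkn1a and up to 3 called each way per list. The remaining members are named for completeness. Alternatives were RLE and upper-quartile factors, other count filters, DESeq2, limma-voom, no block, adjusted p under 0.01, fits of only 2 groups, leaving out each library in turn, and, added later, length or GC trends removed and all replicate 2 libraries left out. GC content used the GENCODE M21 transcript nearest in length.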

Additional observations from a re-analysis of the deposited data

Results flagged for a closer look

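Nusap1, which links spindle microtubules to chromatin, was called lower in Ddx10KD and higher in Ddx24KD against EGFPKD, and the direct test between these knockdowns was called as well, with a log2 difference of -0.24 ± 0.04 (SE, edgeR adjusted p 0.00212). Its means were 106 ± 7.88 CPM in Ddx10KD and 125 ± 6.91 in Ddx24KD (SD, n = 3), and the 3 libraries of each did not overlap. Without the replicate block the adjusted p was 0.137.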

How the results depend on the processing

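Counts of called members that moved by more than 1.5 times are given here beside their reported values, which were 0 for Ddx24KD against Ddx54KD, 6 for Ddx10KD higher, 13 for Ddx10KD lower, 3 for Ddx24KD lower, 16 for Ddx27KD higher, 13 for Ddx54KD higher, 19 for Ddx10KD against Ddx24KD, 12 for Ddx10KD against Ddx27KD, 12 for Ddx10KD against Ddx54KD and 31 for the test over 5 groups. With DESeq2 the counts were 1 for Ddx24KD against Ddx54KD. Without the replicate block the counts were 3 for Ddx10KD higher, 5 for Ddx10KD lower, 0 for Ddx24KD lower, 10 for Ddx27KD higher, 6 for Ddx54KD higher, 0 for Ddx10KD against Ddx24KD, 0 for Ddx10KD against Ddx27KD, 0 for Ddx10KD against Ddx54KD and 13 for the test over 5 groups. At an adjusted p under 0.01 the counts were 7 for Ddx10KD lower, 1 for Ddx24KD lower, 6 for Ddx10KD against Ddx24KD, 3 for Ddx10KD against Ddx27KD, 2 for Ddx10KD against Ddx54KD and 20 for the test over 5 groups. In fits of the compared groups alone the counts were 1 for Ddx10KD against Ddx24KD and 19 for Ddx10KD against Ddx54KD. With length trends removed the counts were 1 for Ddx24KD against Ddx54KD. With GC trends removed the counts were 1 for Ddx24KD against Ddx54KD. Without all replicate 2 libraries the counts were 5 for Ddx10KD against Ddx24KD, 2 for Ddx10KD against Ddx27KD and 5 for Ddx10KD against Ddx54KD. Leaving out 1 library at a time gave 8 to 11 for Ddx10KD lower, 8 to 14 for Ddx54KD higher, 5 to 16 for Ddx10KD against Ddx24KD, 1 to 7 for Ddx10KD against Ddx27KD, 1 to 5 for Ddx10KD against Ddx54KD and 0 to 1 for Ddx24KD against Ddx54KD. RLE and upper-quartile factors, limma-voom and both count filters left every count within 1.5 times. The replicate numbers pair the libraries, and of the 19, 23, 20 and 17 members called in Ddx10KD, Ddx24KD, Ddx27KD and Ddx54KD, 8, 16, 13 and 9 kept their call without the block, 8, 18, 14 and 12 kept it with each library left out, and 7, 14, 11 and 8 in every alternative. Cenpf in Ddx27KD changed sign with length trends removed, to -0.011. The causes were not tested, and the fits that leave libraries out also have fewer samples. With 3 libraries a group and SEs of 0.03 to 0.07 (log2), the smallest change called against EGFPKD was -0.08 (Ccnb1 in Ddx10KD).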

Other observations

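The members' levels were also set against their group means in each library. In replicate 2 of every group their median deviation from the group's mean was above 0, at 0.0273 in EGFPKD, 0.0329 in Ddx10KD, 0.0642 in Ddx24KD, 0.0262 in Ddx27KD and 0.0135 in Ddx54KD (log2 CPM). In the 10 libraries of replicates 1 and 3 it lay between -0.0328 and 0.0145, and EGFPKD replicate 1 (0.0145) stood above Ddx54KD replicate 2 (0.0135). The median deviation of all tested genes lay between -0.00419 and 0.00520 in the 15 libraries. Scaling and centring on group means hold that median near 0, so it does not show how far another set of genes would vary. Ddx24KD replicate 2 held the highest levels of Mki67, Tpx2 and Ncapd2 among all libraries, at 578, 322 and 352 CPM. These genes were chosen after their values were seen.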
